A study of Homo sapiens with 12 samples.

Results

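Caveolae are small flask-shaped pits of the plasma membrane, built from caveolins inserted in the inner leaflet and a cavin coat on the cytoplasmic side. They flatten when the membrane is stretched, which releases membrane and cavins, and they are abundant in fibroblasts, muscle, endothelium and fat cells. The accessibility of their genes was described here over a list of 9 genes, out of 20033 protein-coding genes on the autosomes, X and Y. They are the caveolins CAV1, CAV2 and CAV3, the cavins CAVIN1, CAVIN2, CAVIN3 and CAVIN4, and the membrane-shaping proteins EHD2 and PACSIN2. A peak summit, the position of highest signal in an accessible interval, was assigned to a gene when it lay inside the RefSeq gene (GRCh38) or within 20 kb of either end. Accessibility was read by ATAC-seq: a transposase inserts sequencing adapters where chromatin is open.

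The cells were HT1080, an established human fibrosarcoma line, and all data come from this 1 line. They migrated for 48 h in rat tail type-I collagen at 0.3 mg/mL (low), 1 mg/mL (medium) or 1.7 mg/mL (high), with 4 libraries per concentration and 12 in all. Every group, the low concentration included, received the metalloproteinase inhibitor GM6001 at 20 µM. The deposited peak list is pooled over the series and names no library, so no collagen concentration is compared below, the values have no replicates, and the depth per library is unknown.

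The list held 188019 summits in 91278 intervals. Each summit carries the authors' enrichment, the fold of signal over the local background, and their −log10 q. From enrichment and p the fragment pileup, the number of fragments or extended reads that overlap there, was recovered together with its local background. The background shared by 53.0% of the list, 20.3 fragments within 0.2%, is called the genome-wide background. Marker genes of the labelled cell type were examined in the same list. A summit lay within 1000 bp of the start of 7 of 8 mesenchymal markers (all but PRRX1), of 1 of 6 epithelial markers (EPCAM, enrichment 2.11), 1 of 8 muscle markers (MYL2, 6.84), 1 of 4 endothelial markers (KDR, 3.05), 2 of 4 leukocyte markers (CD3E, 14.5, and SPI1, 8.44) and 0 of 4 adipocyte markers. The share over all protein-coding genes was 62.8%. Where no strand was known, a summit at either end of the gene was counted. This applies to SNAI2, TWIST1, COL6A1, EPCAM, MYL2, CD3E and SPI1, whose summits may lie at the far end. Enrichment at the mesenchymal markers ran from 6.27 (TWIST1) to 15.1 (FN1), and CD3E was above all of them but FN1.

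All 9 caveolae genes had at least 1 summit inside the gene or within 20 kb, where 92.7% of all protein-coding genes did. The windows held 71 different summits in 60 intervals, and 3 of these summits fell in the windows of both CAV1 and CAV2. A gene had between 2 summits (CAVIN2 and CAVIN3) and 27 (PACSIN2), with a median of 6, against a median of 5 over all protein-coding genes. A summit within 1000 bp of the gene start was present in 6 of 9: CAV1, CAV2, CAVIN1, CAVIN4, EHD2 and PACSIN2. Over all protein-coding genes the share was 62.8%, so the count of 6 is near the background. CAV3, CAVIN2 and CAVIN3 had none. The map of summits along each gene shows these positions.

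**Figure D1:**
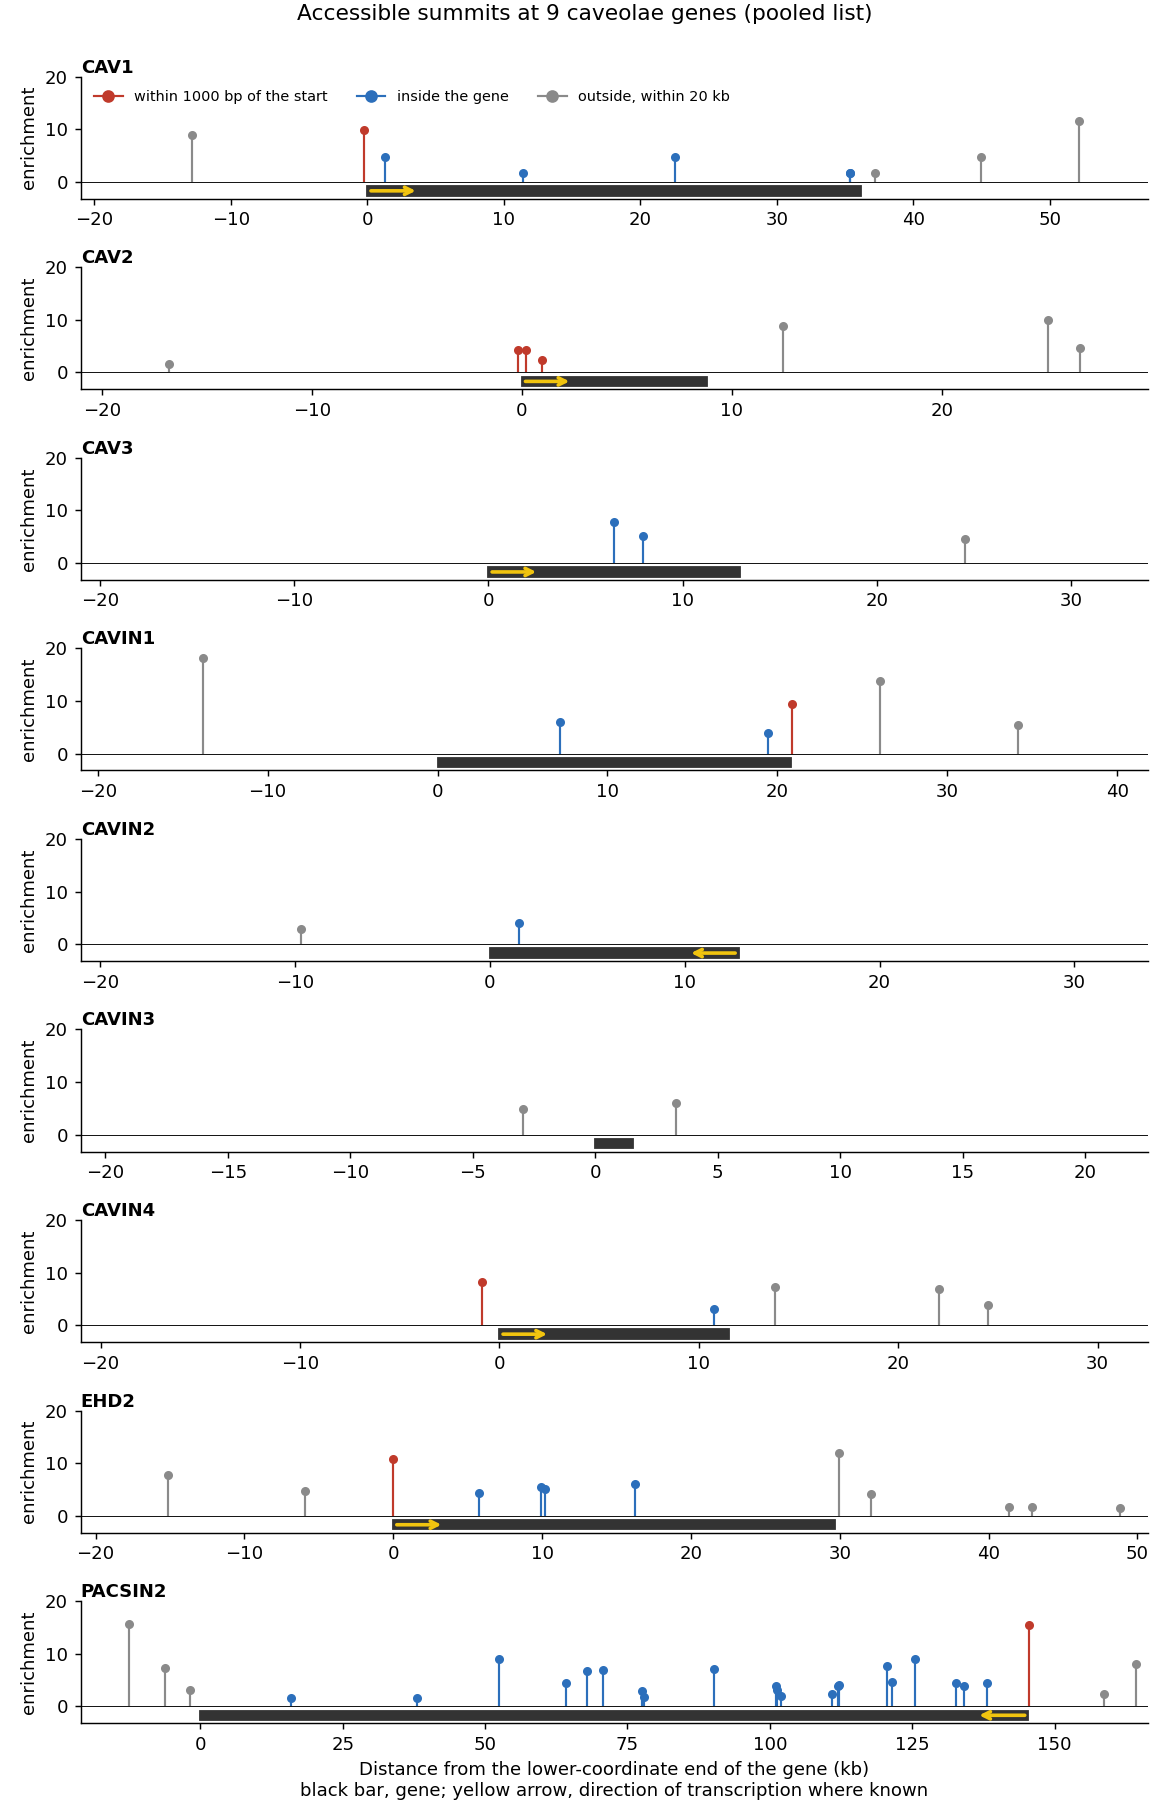
Enrichment at each summit (vertical axis, fold over local background) against its distance from the lower-coordinate end of the gene (horizontal axis, kb), 1 panel per gene. Red marks a summit within 1000 bp of the start (of either end for CAVIN1 and CAVIN3), blue one inside the gene and grey one outside it within 20 kb. PACSIN2 holds 27 summits, while CAVIN2 and CAVIN3 hold 2 each and CAV3 has none at its start.

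Promoter sequences are shown to set the base composition at the starts beside the summits there. RefSeq (GRCh38.p14) promoter entries matched 7 of the 9 genes, and CAVIN1 and CAVIN3 had none. The 250 bases before the outermost start are printed 5′ to 3′ for CAV1, CAV2, EHD2 and PACSIN2, where a summit falls within these bases, and for CAV3 and CAVIN2, which had no summit there. Capitals mark matches, on either strand, to 6 motifs: the AP-1 site TGANTCA, the TEAD site CATTCC, the GC box GGGCGG, the CCAAT box CCAAT, the E-box CACGTG and the TATA box TATAAA. The windows are chr7:116524759-116525008 (CAV1, plus strand), chr7:116499488-116499737 (CAV2, plus), chr19:47713172-47713421 (EHD2, plus), chr22:43015150-43015399 (PACSIN2, minus), chr3:8733552-8733801 (CAV3, plus) and chr2:191847089-191847338 (CAVIN2, minus).
CAV1: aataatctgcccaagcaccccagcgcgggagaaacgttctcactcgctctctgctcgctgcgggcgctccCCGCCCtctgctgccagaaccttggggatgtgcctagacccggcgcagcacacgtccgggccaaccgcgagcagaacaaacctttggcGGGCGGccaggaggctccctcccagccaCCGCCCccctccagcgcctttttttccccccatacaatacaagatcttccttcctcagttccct
CAV2: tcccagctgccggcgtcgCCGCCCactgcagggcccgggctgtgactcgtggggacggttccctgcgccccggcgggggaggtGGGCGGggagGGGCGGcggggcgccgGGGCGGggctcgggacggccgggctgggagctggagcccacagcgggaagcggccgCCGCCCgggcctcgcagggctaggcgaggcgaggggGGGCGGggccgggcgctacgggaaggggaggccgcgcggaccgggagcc
EHD2: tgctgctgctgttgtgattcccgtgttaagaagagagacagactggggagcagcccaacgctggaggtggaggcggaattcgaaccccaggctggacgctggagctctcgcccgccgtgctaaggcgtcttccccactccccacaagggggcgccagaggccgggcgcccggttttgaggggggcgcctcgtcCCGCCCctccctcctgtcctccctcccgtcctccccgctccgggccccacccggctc
PACSIN2: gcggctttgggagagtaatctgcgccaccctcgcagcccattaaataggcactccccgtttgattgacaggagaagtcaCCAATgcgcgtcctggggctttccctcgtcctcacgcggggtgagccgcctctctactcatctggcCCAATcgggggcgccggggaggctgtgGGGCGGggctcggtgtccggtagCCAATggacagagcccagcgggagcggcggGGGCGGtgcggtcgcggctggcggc
CAV3: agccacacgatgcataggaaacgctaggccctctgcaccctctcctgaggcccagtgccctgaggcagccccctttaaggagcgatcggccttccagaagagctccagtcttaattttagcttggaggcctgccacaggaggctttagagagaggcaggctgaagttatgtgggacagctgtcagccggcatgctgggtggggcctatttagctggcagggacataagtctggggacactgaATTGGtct
CAVIN2: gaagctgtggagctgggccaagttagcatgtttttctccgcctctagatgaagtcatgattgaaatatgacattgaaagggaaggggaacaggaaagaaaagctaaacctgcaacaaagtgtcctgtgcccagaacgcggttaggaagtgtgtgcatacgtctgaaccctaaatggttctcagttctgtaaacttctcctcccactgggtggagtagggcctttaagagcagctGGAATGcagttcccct

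CpG dinucleotides numbered 35 in the CAV2 window, 24 in PACSIN2, 20 in EHD2 and 18 in CAV1, against 5 in CAV3 and 4 in CAVIN2. The median over 15842 protein-coding genes with an entry was 17. The G and C content ran from 48% (CAVIN2) and 57.2% (CAV3) to 83.2% (CAV2), which exceeded 98.6% of these promoters. GC boxes numbered 6 in CAV2, 3 in CAV1, 2 in PACSIN2 and 1 in EHD2, and none was found in CAV3, CAVIN2 or the CAVIN4 window. The CAVIN4 window lies before a start that is 2095 bp from the summit counted for this gene. The GC box is present in 55.8% of all these promoters. PACSIN2 also held 3 CCAAT boxes, a motif in 34.5% of promoters, and CAV3 held 1 on the opposite strand. The TEAD letters were found once, in CAVIN2 (10.2% of promoters hold them). The AP-1 and E-box letters, in 5.00% and 7.80% of promoters, were in none of the 6 windows.

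Over all genes with an entry, the share with a summit within 1000 bp of the start was larger in classes with more CpGs in this window. It was 20.6% of 3208 genes with fewer than 5, 42.6% of 1819 with 5 to 9, 74.8% of 4035 with 10 to 19 and 83.2% of 6780 with 20 or more. Summits were measured from the outer end of the gene span, which can differ from the start that the window precedes. CAV1, CAV2, EHD2 and PACSIN2 belong to the classes with the highest shares, and CAV3 and CAVIN2 to those with the lowest. The CAVIN4 window, not printed, had 2 CpGs, the fewest of the 7 genes with an entry, and 40.4% G and C. It ends at a start 1212 bp inside the annotated span. The summit counted for CAVIN4 lay 883 bp from the outer end of the span but 2095 bp from that start. Measured from the outer end, as for the class shares, CAVIN4 was among the 20.6% of its class with a summit. The window held 1 TATA box, a motif in 9.35% of promoters.

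**Figure D2:**
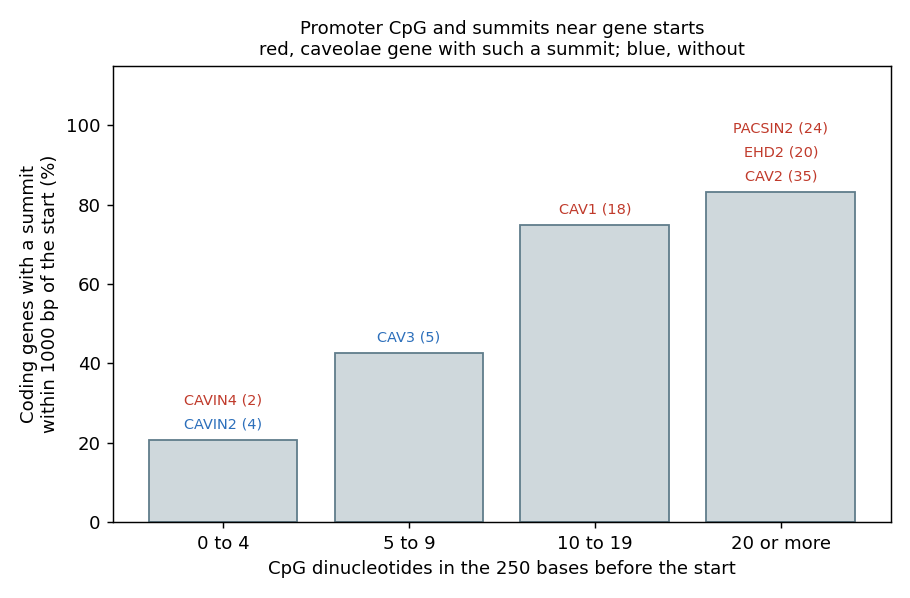
Share of protein-coding genes with a summit within 1000 bp of the start (vertical axis, %) by the number of CpG dinucleotides in the 250 bases before the start (horizontal axis). Caveolae genes stand above the bar of their class with their CpG count, red with such a summit and blue without. The bars run from 20.6% to 83.2%. Summits are measured from the outer end of the gene span and CpGs before the outermost listed start. For CAVIN4 that start is 1212 bp inside its annotated span.

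Enrichment at the starts differed among the 6 genes. PACSIN2 had the highest, 15.5, followed by EHD2 (10.9), CAV1 (9.94), CAVIN1 (9.47), CAVIN4 (8.25) and CAV2 (4.31). The median of these 6 genes was 9.70, against 11.9 over the 12579 protein-coding genes with a summit near the start. By pileup the order differed: CAV1 was first with 1730 fragments (exact 95% Poisson interval 1649 to 1813), then PACSIN2 with 1414 (1341 to 1490), CAVIN1 with 971 (911 to 1034), EHD2 with 432 (392 to 475), CAVIN4 with 175 (150.0 to 202.9) and CAV2 with 157 (133 to 184). The intervals of CAVIN4 and CAV2 overlap, and those of the other neighbours in this order do not. These intervals cover counting error only, since fragments amplified by PCR are not independent and the spread between libraries is not known. With a limit of 10 on −log10 q, the same 6 of the 9 genes had a summit near the start, against 57.9% of all protein-coding genes. With a limit of 5 on enrichment, 5 of the 9 genes remained (all but CAV2 of the 6), against 52.0% of protein-coding genes.

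**Figure D3:**
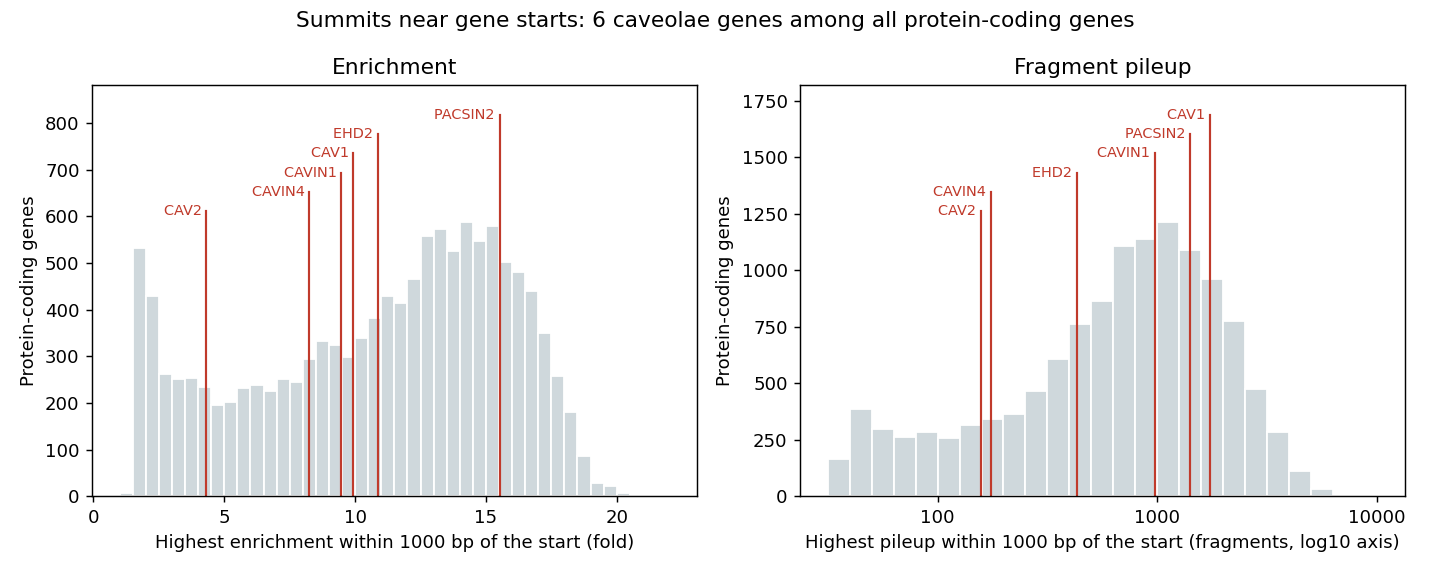
Number of protein-coding genes (vertical axes) by the highest enrichment (left, fold) and the highest pileup (right, fragments, log10 axis) within 1000 bp of the start, for the 12579 genes with such a summit. Red lines mark the 6 caveolae genes. CAV1 stands left of the median in enrichment (9.94) and to the right in pileup (1730), and CAV2 is at the left in both.

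CAV1 encodes the principal structural caveolin outside muscle, without which caveolae do not form in these cell types. Its gene (chromosome 7, 116525009 to 116561185) had 10 summits in 9 intervals. The summit 245 bp upstream of the start had a pileup of 1730, 9.94-fold enrichment and a −log10 q of 1053. Its pileup exceeded that of 81.8% of protein-coding genes with a summit near the start, but its enrichment exceeded only 38.0%. The local background there was 173.2 fragments, 8.52 times the genome-wide value, and the summit ranks differently by enrichment and by pileup.

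RefSeq lists 3 starts for CAV1. The summit above lies upstream of the first 2, at 116525009 and 116525036. A separate summit lay 58 bp upstream of the remaining one, at 116526362, with a pileup of 811, 4.66-fold enrichment and a background of 173.4. The 2 summits are 1540 bp apart, in separate intervals. Further inside the gene, a summit 22532 bp from the start had 4.71-fold enrichment and a pileup of 159. The 3 other summits inside CAV1, at 11424, 35354 and 35367 bp, were weak, with enrichments of 1.70, 1.63 and 1.62 and −log10 q of 1.95, 1.39 and 1.34, close to the lowest −log10 q of the list, 1.30. Another weak summit lay 977 bp beyond the far end, with 1.76 and a pileup of 42.

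By enrichment the strongest CAV1 summit was not at a start. It lay 15985 bp beyond the far end of the gene, inside the long noncoding RNA gene COMETT, with 11.5-fold enrichment, a pileup of 613 and a background of 52.3. A weaker COMETT summit, 8754 bp beyond CAV1, had 4.81-fold enrichment and a pileup of 117.

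CAV2, the partner that CAV1 carries to the plasma membrane, lies beside CAV1 on chromosome 7 (116499738 to 116508541). It had 7 summits in its window. Those near its start belong to 1 interval of 1573 bp with 3 summits. They stood 166 bp upstream (enrichment 4.31, pileup 157), 191 bp downstream (4.23 and 154) and 942 bp downstream (2.42 and 88). The first and second are also within 1000 bp of an end of CAV2-DT, a noncoding RNA gene whose near end is 222 bp from CAV2. The second RefSeq start of CAV2, at 116500046, lies 117 bp from the summit with a pileup of 154. CAV2 exceeded 15.0% of protein-coding genes with a summit near the start in enrichment and 15.5% in pileup, although its promoter had the most CpGs and GC boxes of those printed.

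Between CAV2 and CAV1 there was 1 further summit, 3610 bp beyond the end of CAV2 and 12858 bp before the start of CAV1. Its enrichment was 8.91, its pileup 352 and its −log10 q 201.8, in an interval of 1253 bp. Its pileup was thus above all 3 summits at the CAV2 start and below that at the CAV1 start. It is 1 of the 3 summits shared by the windows of both genes, together with the pair at the CAV1 starts.

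CAV3 is the muscle caveolin. Its gene (chromosome 3, 8733802 to 8746758) had 3 summits and none near the start: the closest lay 6486 bp inside, with 7.83-fold enrichment, a pileup of 470 and a background of 59.1. The next, 7946 bp from the start, had 5.13 and 315 and also lies inside OXTR, the oxytocin receptor gene, which overlaps CAV3 by 5490 bp. The remaining summit, 11604 bp beyond CAV3, is inside OXTR alone, with 4.48-fold enrichment and a pileup of 107. Of the 3 summits, the one with the highest pileup lies in CAV3 alone, and the middle one cannot be told apart by position between CAV3 and OXTR. The start of OXTR had a summit with 5.95-fold enrichment and a pileup of 156, outside the CAV3 window.

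CAVIN1 encodes the coat protein that, with CAV1, is required to form caveolae. Its gene (chromosome 17, 42402449 to 42423256) had 6 summits. Since no strand was given for it, both ends were searched. The summit 61 bp outside the higher-coordinate end had 9.47-fold enrichment, a pileup of 971 and a background of 101.6, and also lies in LOC102725238, a noncoding RNA gene that overlaps that end by 70 bp. Its interval of 1832 bp held another summit, 1338 bp inside the gene, with 3.89 and 378. A further summit inside, 7220 bp from the lower end, had 6.01 and 249.

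A stronger CAVIN1 summit stood 5221 bp beyond the same end, inside LOC102725238, with 13.8-fold enrichment and a pileup of 973. The enrichment was above that of the summit at the gene end (9.47), and the pileups were 973 and 971. The strongest summit in the window, with 18.3-fold enrichment, a pileup of 3622 and a −log10 q of 3088, lay 205 bp from the start of STAT3, a transcription factor of cytokine signalling. Its nearest coding gene is STAT3, so it entered the CAVIN1 window by distance alone (13802 bp).

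CAVIN2, which helps curve the caveolar membrane, had the lowest maximum of the 9 genes in both enrichment and pileup. Its gene (chromosome 2, 191834310 to 191847088) had a summit inside, 11267 bp from the start, with 3.94-fold enrichment and a pileup of 83. The other lay 9685 bp beyond the lower-coordinate end, with 2.91 and 61. Both stood at the genome-wide background. No summit was within 2500 bp of its start. Just outside the limit of 20 kb, 20134 bp away, was a summit that had 5.68-fold enrichment and a pileup of 120, above both inside. The farthest summit kept for any gene, 19093 bp from EHD2, had 1.51 and 70.

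CAVIN3, a cavin that binds protein kinase C delta, is a short gene of 1556 bp (chromosome 11, 6318946 to 6320501) and the 1 member with no summit inside it. Over all protein-coding genes, 66.1% had a summit inside. Its 2 summits lay outside either end, 1754 bp beyond the higher one (enrichment 5.95, pileup 134) and 2954 bp beyond the lower one (4.97 and 105). The first lies in the noncoding RNA gene LOC101927825, which overlaps CAVIN3 by 1361 bp. With 2500 bp in place of 1000 bp around the start, or around either end where the strand is not known, CAVIN3 joined the genes with a summit and the count rose from 6 to 7 of 9, against 70.2% of protein-coding genes.

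CAVIN4 is the muscle cavin. In its gene (chromosome 9, 100576867 to 100588389) the summit counted near the start lay 883 bp upstream of the annotated span, with 8.25-fold enrichment, a pileup of 175 and the genome-wide background of 20.3. That position is inside TMEFF1 and the readthrough gene MSANTD3-TMEFF1, 1652 bp from their ends, and these overlap CAVIN4 by 770 bp. The start in the promoter table lies 1212 bp inside the CAVIN4 span, and from there the summit was 2095 bp away. Measured from the starts of that table, an alternative added with the data in view, 5 of 9 caveolae genes had a summit within 1000 bp, without CAVIN4, against 65.9% of protein-coding genes. Genes with no entry there, CAVIN1 among the 5, were again searched at both ends.

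Elsewhere CAVIN4 had a summit inside, 10759 bp from the start (enrichment 3.07, pileup 80), and 3 downstream of the gene. These lay 2290, 10500 and 13000 bp beyond its end, with enrichments of 7.31, 6.86 and 3.77 and pileups of 189, 266 and 130.

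EHD2 encodes an ATPase that forms rings at the caveolar neck and holds caveolae at the surface. Its gene (chromosome 19, 47713422 to 47743134) had 12 summits. The summit 43 bp upstream of the start had 10.9-fold enrichment, a pileup of 432 and a background of 38.8. Inside the gene were 4 summits, 5769, 9905, 10222 and 16234 bp from the start, with enrichments of 4.42, 5.53, 5.04 and 6.03 and pileups of 274, 340, 309 and 155. None of them reached the pileup of the summit at the start.

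The strongest EHD2 summit was at the opposite end. It lay 266 bp beyond the gene's last base, in an interval of 865 bp of which 85 bp lie in EHD2, with 11.9-fold enrichment, a pileup of 1969 and a −log10 q of 1335. The pileup was above that of any other summit in the EHD2 window, the start included (432). The next gene, NOP53, which encodes a ribosome biogenesis factor, starts 2146 bp further on from this summit. The summit 5 bp from the NOP53 start had 4.23-fold enrichment and a pileup of 707, over a background of 166.5. Of the other summits in the window, 3 had enrichments of 1.68, 1.63 and 1.51 with −log10 q under 3, inside NOP53 or its antisense gene NOP53-AS1. On the opposite side, a summit inside BICRA had 7.70 and 326 and another, 5958 bp before EHD2, had 4.68 and 111.

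PACSIN2 encodes an F-BAR protein that bends membranes and takes part in shaping caveolae. It is the longest of the 9 genes, 145.4 kb on chromosome 22 (42869766 to 43015149). The summit 92 bp upstream of its start had 15.5-fold enrichment, a pileup of 1414 and a −log10 q of 1115. This enrichment exceeded that of 81.4% of protein-coding genes with a summit near the start. In that order, over 12579 genes, PACSIN2 stood at rank 2340, between GATAD2B and ADPGK, and CAV1 stood at rank 7805, between RAB31 and CCDC97.

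The body of PACSIN2 held 21 summits in 15 intervals. This number exceeded that of 98.9% of all protein-coding genes and 98.4% of the 1957 genes of 100 to 200 kb, whose median was 4. Per 10 kb of gene it had 1.44 summits, above 85.7% of protein-coding genes. The values of shorter members rest on few summits: 2.27 in CAV2 (2 summits), 1.54 in CAV3 (2), 1.38 in CAV1 (5) and 1.35 in EHD2 (4). Lower values were found in CAVIN1 (0.961, 2 summits), CAVIN4 (0.868, 1), CAVIN2 (0.783, 1) and CAVIN3 (0). Both CAV2 summits belong to the 1 interval at its start. Of the 21 summits, 15 lay nearer to the gene's start and 6 nearer to its other end. Enrichments inside ran from 1.60 to 9.06, with a median of 3.99, and pileups from 39 to 697, with a median of 147. All were below the summit at the start.

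Among the summits inside PACSIN2, 2 had an enrichment above 8. These lay 19815 bp from the start (9.06, pileup 697) and 92972 bp from it (8.96, pileup 307). RefSeq lists 6 starts for the gene. Of these, 4 lie together between 42959856 and 42960269, and a summit with 7.08-fold enrichment and a pileup of 171 was within 342 bp of each. The start at 42947041 had a summit 307 bp upstream, with 2.87-fold enrichment and a pileup of 73. All 6 listed starts therefore had a summit within 1000 bp, with pileups from 73 to 1414.

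By enrichment the strongest summit in the PACSIN2 window, 15.7 with a pileup of 1276, was 31 bp from the start of ARFGAP3, which encodes an activating protein of a Golgi GTPase. The summit at the PACSIN2 start had a similar enrichment (15.5) and a higher pileup (1414).

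Summits at the gene starts, inside the genes and around them were compared over all 9 genes. The 8 summits near a start (3 of them in the CAV2 interval) had medians of 8.86 in enrichment and 303.5 in pileup. The 36 other summits inside the genes had medians of 4.41 and 165. The 27 outside had medians of 4.97 and 134, with a range of 1.51 to 18.3 in enrichment that covered the whole range of the summits at the starts. For 7 of the 9 genes the strongest summit by enrichment lay outside the gene span, the exceptions being CAV3 and CAVIN2. That was so for 12844 protein-coding genes, 64.1% of all 20033. Those 20033 include genes with no summit, and 18577 had a summit in their window, as all 9 caveolae genes did. The count of 7 includes the summit just upstream of CAVIN4 and the neighbours' promoters named above.

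**Figure D4:**
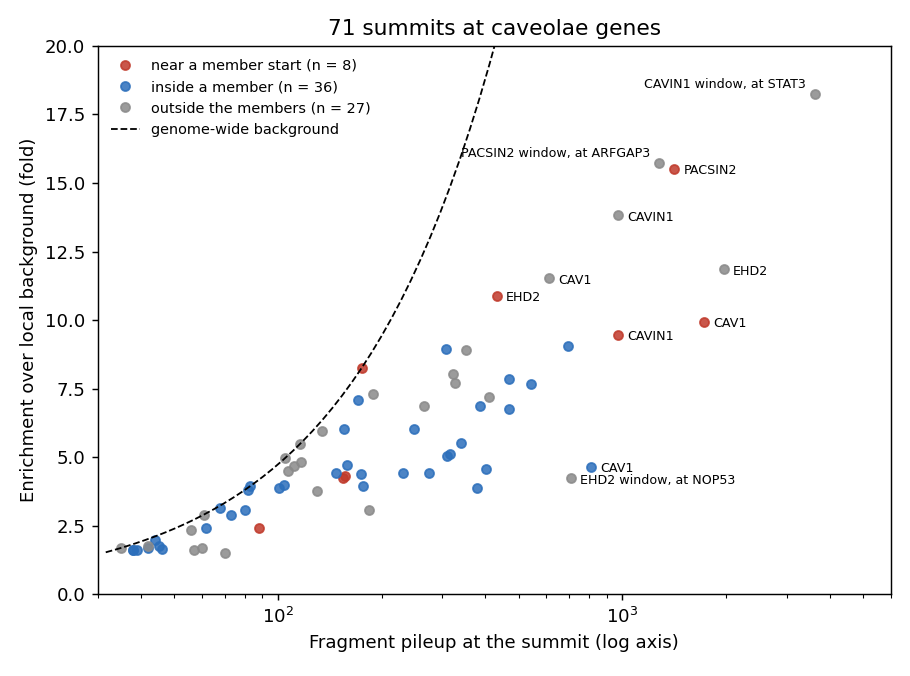
Enrichment (vertical axis, fold over local background) against fragment pileup (horizontal axis, log scale) for the 71 summits. Red points lie near the start of a caveolae gene (n = 8), blue points inside one (n = 36) and grey points outside (n = 27), and the dashed line gives the enrichment over the genome-wide background of 20.3 fragments. The strong summits of CAV1, CAVIN1, EHD2 and PACSIN2 lie far to the right of the line, where the local background is raised.

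The local background was above the genome-wide value at 65 of the 71 summits. The other 6 (8.45%) were at it, against 25.4% of the 75066 summits in the window of any protein-coding gene. Over the same summits the medians were 4.30 in enrichment and 126 in pileup, against 4.57 and 171 for the caveolae genes. Summits with an enrichment of at least 10 made up 9.86% (7 of 71), against 18.3%. Weak summits, with −log10 q under 3, were 11 of 71 (15.5%, against 13.4%), and all were at CAV1 (4), CAV2 (1), EHD2 (3) and PACSIN2 (3).

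Other genes tied to caveolae were examined from a list of 18. A summit near the start was present in 12 (66.7%), the same share as in the 9 caveolae genes and near the 62.8% of all protein-coding genes. The median of the highest enrichment near the start was 13.5 in these 12 genes, 9.70 in the 6 caveolae genes and 11.9 in all protein-coding genes with such a summit. FYN, a Src family kinase that phosphorylates CAV1, had the highest enrichment at its start, 16.9 with a pileup of 1389. It was followed by EHD1, an endosomal relative of EHD2, with 16.2 and 2661 at 992 bp from the start, and by the kinase gene ABL1 with 16.1 and 3045.

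Values of other genes in the list are given by family. EHD3 (13.3) and EHD4 (15.4) had enrichments above EHD2 (10.9). PACSIN3, searched at both ends because its strand was not known, had 14.4, near PACSIN2 (15.5). PACSIN1, the neuronal member, had no summit near its start. The dynamin genes DNM1, DNM2 and DNM3, which encode GTPases that cut membrane necks, had 6.63, 13.6 and 13.3. The flotillin genes FLOT1 and FLOT2, which mark other membrane rafts, had 7.28 and 4.77. ROR1, a receptor that stabilises caveolae, had 12.1. The 6 genes without a summit within 1000 bp of the start were PACSIN1, FLNA, SRC, NOS3, NOSTRIN and INSR, and each had 2 or more summits inside the gene or within 20 kb. With 2500 bp in place of 1000 bp, 14 of the 18 genes had a summit near the start, against 70.2% of protein-coding genes.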

How the data were processed

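ATAC-seq was made from 12 HT1080 libraries in 3 collagen groups. The submitters' processing notes name hg38, fastp 0.20.0, Bowtie2 2.4.3, deepTools 3.5.0, SAMtools and MACS2 2.2.7.1, without their settings; how duplicates were handled, and whether a control entered, is not given in the sources used here. The deposited list, 1 for the whole series, gives per summit a score, the enrichment (a ratio) and the p- and q-value as −log10. These values are the authors'. The score equalled 10 times the deposited −log10 q, truncated, in 99.8% of lines. As the list names no library, no group was compared, no test was run and depth per library is unknown.

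Pileup and background were solved from enrichment, taken as (pileup + 1)/(background + 1), and p, taken as a Poisson upper tail; no source states this model. The pileup came out whole, within 0.05, in 99.96% of lines and at every summit described, and the method was tested on simulated data. Genes and starts come from RefSeq GRCh38.p14 tables. The start is the outer end of the gene on the strand of the promoter table; for the 4192 genes without a strand, both ends were used. Summits on alternate and unplaced sequences were not used for genes. Shares and medians over all protein-coding genes, where computed, stand beside the counts as descriptions. Named genes are all 9 members, and neighbours within 20 kb of a member that hold or are nearest to its summits. Also named are the 3 strongest and all summit-free genes of the associated list, and genes next in rank to 2 members. EHD3, EHD4, PACSIN3, the dynamins, flotillins and ROR1 were named after their values were seen. The members and lists were chosen with earlier results of these data known. Python 3.11.15, numpy 2.4.6, scipy 1.17.1 and pandas 2.3.3 were used.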

Additional observations from a re-analysis of the deposited data

How the results depend on the processing

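The values rest on 1 pooled list, so no alternative could leave out a library. No paired analysis was possible because the list carries no value per library. The number of caveolae genes with a summit within 20 kb stayed at 8 or 9 of 9 under all alternatives run. The number with a summit near the start stayed at 5 to 7 of 9. The share of all protein-coding genes was 92.7% within 20 kb and 66.1% inside the gene. Near the start it was 62.8%, and from 52.0% to 70.2% in the alternatives where it was computed. For the remaining alternatives this share was not computed. The 71 summits fell to 38 when those outside the genes were left out. The median over members of the highest enrichment was 9.94 within 20 kb, against 13.0 over the 18577 protein-coding genes with a summit there. It was 5.36 inside the genes (8 genes) and 9.70 near the starts (6 genes). The 9.94 is the CAV2 entry, which is the summit at the CAV1 start. The CAVIN1 and PACSIN2 entries lie at the starts of STAT3 and ARFGAP3. The median pileup of the summits was 171, and 176 with the strongest summit of each interval, an alternative added after the data were seen. Ranked by pileup or by −log10 q in place of enrichment, 6 of 9 genes kept their strongest summit; in CAV1 and PACSIN2 it moved to the gene start, and in CAVIN4 to the summit 10500 bp beyond the gene. Enrichment depends on the local background and pileup on pooled depth, and the list allows neither to be separated by library.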
